A study of Mus musculus with 6 samples.

Results

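Chemokines are small secreted proteins that direct the movement of white blood cells, and their receptors are G protein-coupled receptors on the cells that respond. In skin, keratinocytes release some of them constantly and others after injury or cytokine exposure, and resident Langerhans cells, T cells and macrophages both make and sense them. Atypical receptors bind chemokines without the usual G protein signal and remove them. Genes of this family were taken as those whose mouse symbol begins with Ccl, Cxcl, Cx3cl, Ccr, Cxcr or Cx3cr followed by a digit, with symbols found through the RefSeq accession of each probe. The rule gave 51 genes read by 64 probes, of 18217 named genes read by 26690 probes. Of these, 33 encode chemokines and 18 encode receptors. Another 10 symbols of the reference, among them Cxcl11, Ccl26, Ccl27b and further copies of Ccl19 and Ccl21, matched no probe by accession and were not analysed here.

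RNA came from the epidermis of mice at postnatal day 0. The 3 AhRCA mice expressed a permanently active variant of AhR, the aryl hydrocarbon receptor, a transcription factor that normally waits for ligands such as dioxins. Its expression was driven by the keratin 14 promoter, which is active in basal keratinocytes. The 3 wild-type (WT) mice were littermates, 1 for each AhRCA mouse; the strain background of both groups is given as mixed, and the labels do not say how the epidermis was separated. RNA of each mouse was read on a separate 1-colour Agilent array, which measures the brightness of a spot that binds labelled RNA.

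Values are log2 intensities relative to the 75th percentile of the array, so that 0 is the brightness of that percentile; they compare arrays for 1 probe and do not compare genes. By the scanner software's test, 56.2% to 61.3% of spots lay well above background on the 6 arrays, and 0 were saturated; the number of arrays limits the precision. Litter pairs 1 and 2 lay on slide 1 and pair 3 on slide 2, and by the file headers the 2 slides were scanned on different days. By Xist and the Y-linked Ddx3y, Eif2s3y and Kdm5d the mice of pair 3 were male and the others female. Slide, scan day, pair 3 and sex thus coincided, while each was balanced between genotypes. Cyp1b1, an established AhR target, had log2 intensities of 3.51, 3.62 and 3.62 in AhRCA and -2.01, -1.62 and -1.65 in WT epidermis. All 8 keratinocyte markers (Krt5, Krt14, Krt1, Krt10, Lor, Dsg3, Dsc1 and Trp63) were measured in both genotypes, with log2 fold changes between -0.05 and 0.18, and none of 8 endothelial markers was well above background on any array.

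Most genes of the family were dim in newborn epidermis. Well above background on all 6 arrays were 17 of the 51 genes (33.3%, against 66.3% of all named genes), on 3 to 5 arrays 7, on 1 or 2 arrays 7 and on none 20 (39.2%, against 22.8% of all named genes). An array detected between 21 and 26 of the 51 in AhRCA and between 23 and 27 in WT epidermis. No gene was well above background on at least 2 arrays of 1 genotype and on none of the other. By a looser criterion, positive and significantly above background, 1 gene was: Cxcl17, on 2 AhRCA arrays (as were 120 of 18217 named genes in AhRCA only).

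**Figure D1:**
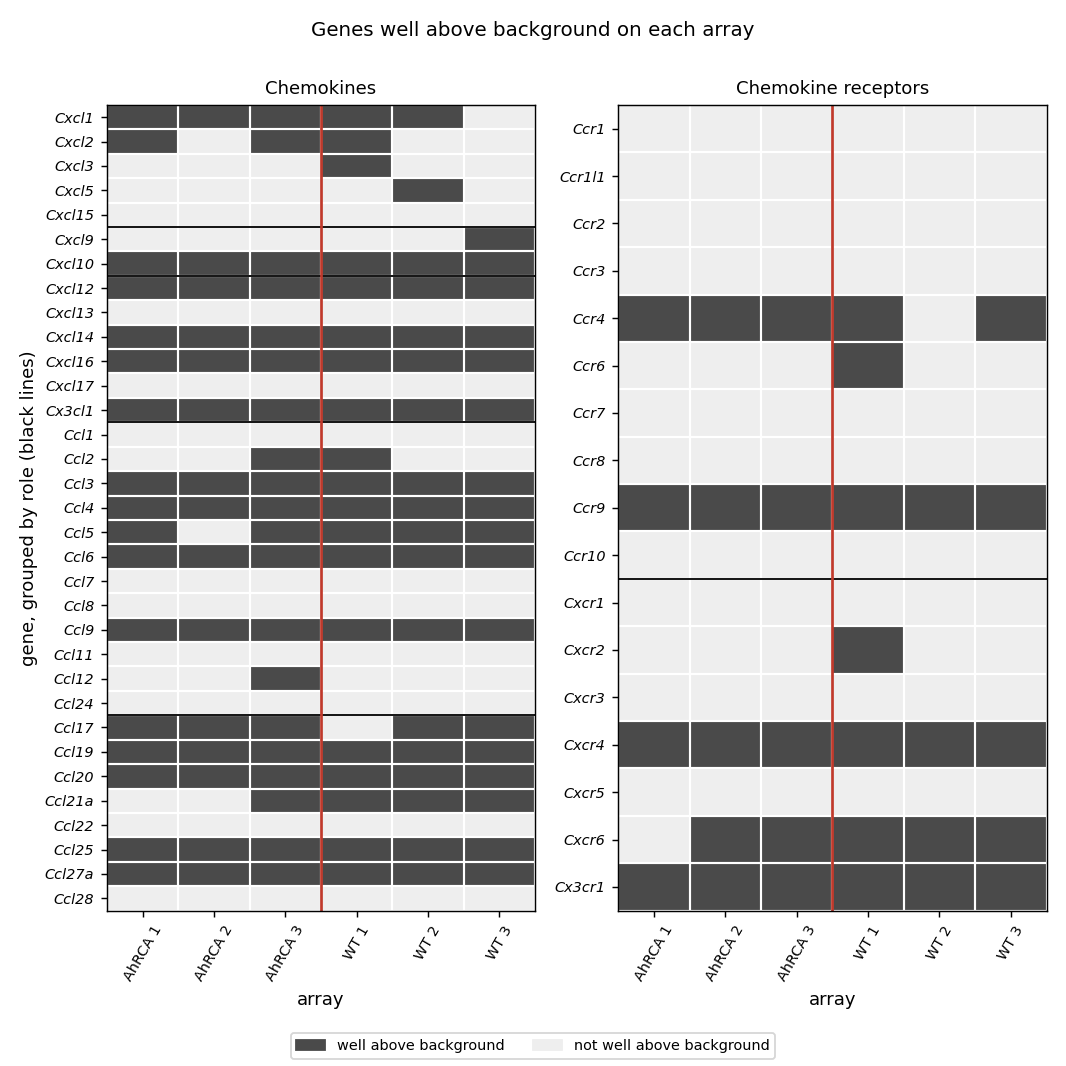
Detection of 33 chemokine and 17 receptor genes (rows, grouped by role) on the 3 AhRCA and 3 WT arrays (columns). Dark cells mark genes with a probe well above background; 16 rows are dark throughout and 20 are light throughout.

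The 20 genes with no probe well above background on any array were the chemokines Cxcl13, Cxcl15, Cxcl17, Ccl1, Ccl7, Ccl8, Ccl11, Ccl22, Ccl24 and Ccl28 and the receptors Ccr1, Ccr1l1, Ccr2, Ccr3, Ccr7, Ccr8, Ccr10, Cxcr1, Cxcr3 and Cxcr5. For these no fold is given. They include Ccr10, the receptor of the keratinocyte chemokine Ccl27, and Ccl28, its other ligand; Ccl22, which attracts cells bearing Ccr4; Ccl1 and its receptor Ccr8; and Ccl11 and Ccl24, which attract eosinophils, with their receptor Ccr3. Also among them were Ccl7, Ccl8 and the monocyte receptor Ccr2, the B cell attractant Cxcl13 with its receptor Cxcr5, Ccr7, which senses Ccl19 and Ccl21, and Cxcr3, which senses Cxcl9 and Cxcl10. Detected on a single array were Cxcl3 and the receptors Ccr6 and Cxcr2 in WT 1, Cxcl5 in WT 2, Cxcl9 in WT 3 and Ccl12 in AhRCA 3, whereas Ccl2, which attracts monocytes, was detected in AhRCA 3 and WT 1. Ccr6, the receptor of Ccl20, stood at -6.73, -6.90 and -5.59 in AhRCA and at -3.98, -6.96 and -4.89 in WT. Cxcl5, a neutrophil attractant, stood at -1.96 in WT 2 and between -7.51 and -7.09 on the other 5 arrays. The interferon-induced Cxcl9 stood at -2.87 in WT 3 and the neutrophil attractant Cxcl3 at -4.16 in WT 1. Cxcr2, the neutrophil receptor for Cxcl1, Cxcl2, Cxcl3 and Cxcl5, stood at -4.96 in WT 1 by 1 of its 2 probes.

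Set against WT, the AhRCA epidermis shows which of these transcripts differ when AhR is active in keratinocytes. The 24 genes with a probe well above background on at least 3 of 6 arrays were tested, 18 chemokines and 6 receptors, within a fit over 12824 genes. Detection in 1 genotype could bring a gene into the test, so counts and medians of the 24 describe those genes and not the family. None passed the threshold of 0.05 on the Benjamini-Hochberg adjusted p of limma, which 2.18% of all genes tested did (0.530% higher and 1.65% lower in AhRCA), and on slide 1 alone 0 passed as well (1.01% of all genes). At an unadjusted p under 0.05 there were 5 higher in AhRCA and 4 lower, against 4.62% and 7.57% of all genes tested (12.2% in both directions). A p that misses the threshold does not show that levels were equal. The closest to the threshold were Ccl6 and Ccl27a, lower in AhRCA, and Cx3cr1, higher. In a fit with litter pairs as blocks Ccl27a and Cxcr6 passed, both lower (3.88% of all genes passed, 2.81% lower). In a fit with slides as blocks Ccl27a passed as lower and Cx3cr1 as higher (4.20% of all genes passed, 2.91% lower and 1.29% higher). The 3 AhRCA arrays lay wholly above the 3 WT arrays for 3 of the 24 genes (Cx3cr1, Ccr4 and Cxcl14) and wholly below for 4 (Ccl6, Ccl27a, Ccl21a and Cxcl12), against 7.52% and 8.84% of all genes tested (16.4% in both directions). All 3 litter pairs differed the same way for 7 genes higher in AhRCA and 5 lower, against 19.7% and 20.1% of all genes tested. The median log2 fold change of the 24 was 0.31, with 17 positive and 7 negative, against 0 over all genes tested; the 27 untested genes have no such value.

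**Figure D2:**
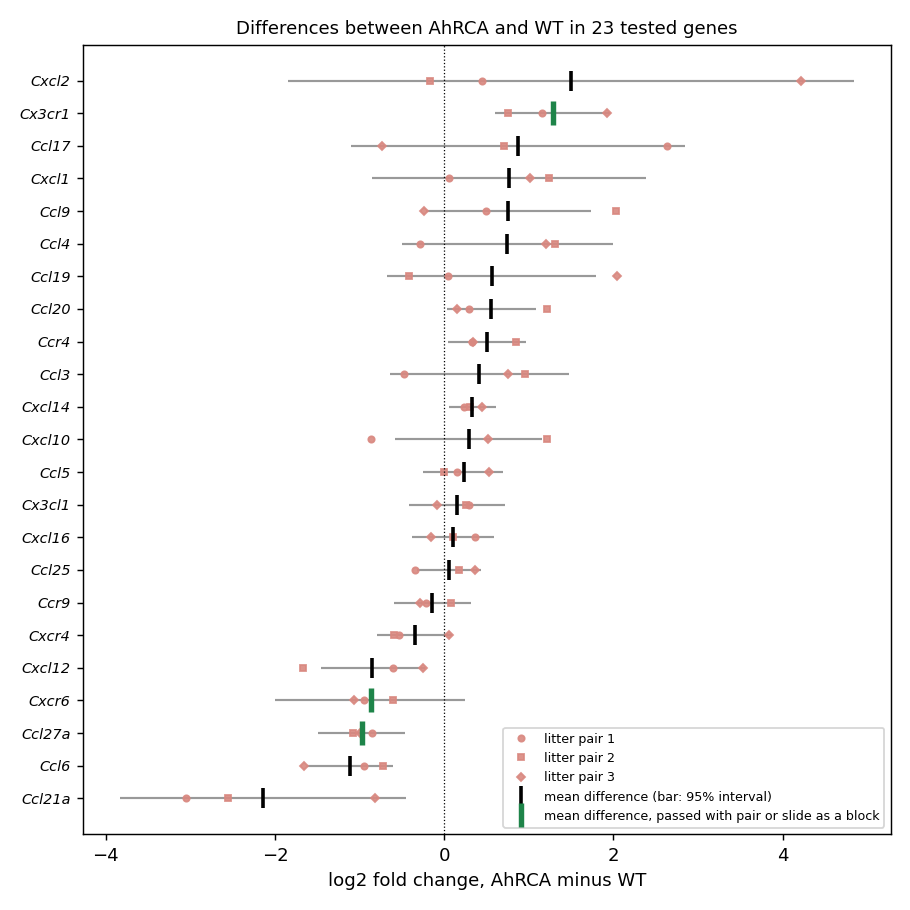
Log2 fold change of AhRCA minus WT for 23 of the 24 tested genes (black or green ticks) with its 95% interval from the limma fit (grey bars) and the difference within each litter pair (red symbols). Green ticks mark Ccl27a, Cxcr6 and Cx3cr1, which passed with the litter pair or the slide as a block; in Ccl27a the 3 pairs lie between -1.08 and -0.85.

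Among chemokines of resting skin, Ccl27a was lower on all AhRCA arrays. It encodes a chemokine that keratinocytes make constantly and that draws skin-homing T cells. Its log2 intensity was 1.26, 0.93 and 0.59 in AhRCA and 2.10, 2.01 and 1.59 in WT epidermis. All 3 AhRCA arrays were below all 3 WT arrays, and within the litter pairs the differences were -0.85, -1.08 and -1.0. The mean was 0.93 ± 0.33 in AhRCA and 1.90 ± 0.28 in WT (SD, n = 3 each), a difference of -0.97 ± 0.21 in log2 units (SE; limma adjusted p = 0.0875). It passed, as lower, with litter pairs (adjusted p = 0.0157, limma) and with slides (adjusted p = 0.0153, limma) as blocks. On slide 1 the value was -0.96 and on slide 2 -1.0. Ccl27a has close copies in the mouse genome, and which of them its probe reads was not tested.

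Cxcl14, an epithelial chemokine with antimicrobial activity, differed the other way by a small amount. It stood at 5.81, 5.79 and 5.74 in AhRCA and at 5.57, 5.48 and 5.28 in WT epidermis, and the groups did not overlap. The mean was 5.78 ± 0.04 in AhRCA and 5.45 ± 0.15 in WT (SD, n = 3 each). The difference was 0.33 ± 0.12 on the log2 scale (SE, 95% interval 0.06 to 0.61; limma adjusted p = 0.281, and 0.148 with litter pairs as blocks). Ccl20, which attracts Langerhans cell precursors and other cells bearing Ccr6, stood at 1.89, 2.45 and 2.04 in AhRCA and at 1.6, 1.23 and 1.89 in WT. The mean was 2.13 ± 0.29 in AhRCA and 1.57 ± 0.33 in WT. It was higher in AhRCA in each litter pair, but AhRCA 1 and WT 3 had the same value to 2 decimals and the log2 fold change of 0.55 ± 0.22 did not pass (limma adjusted p = 0.370).

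**Figure D3:**
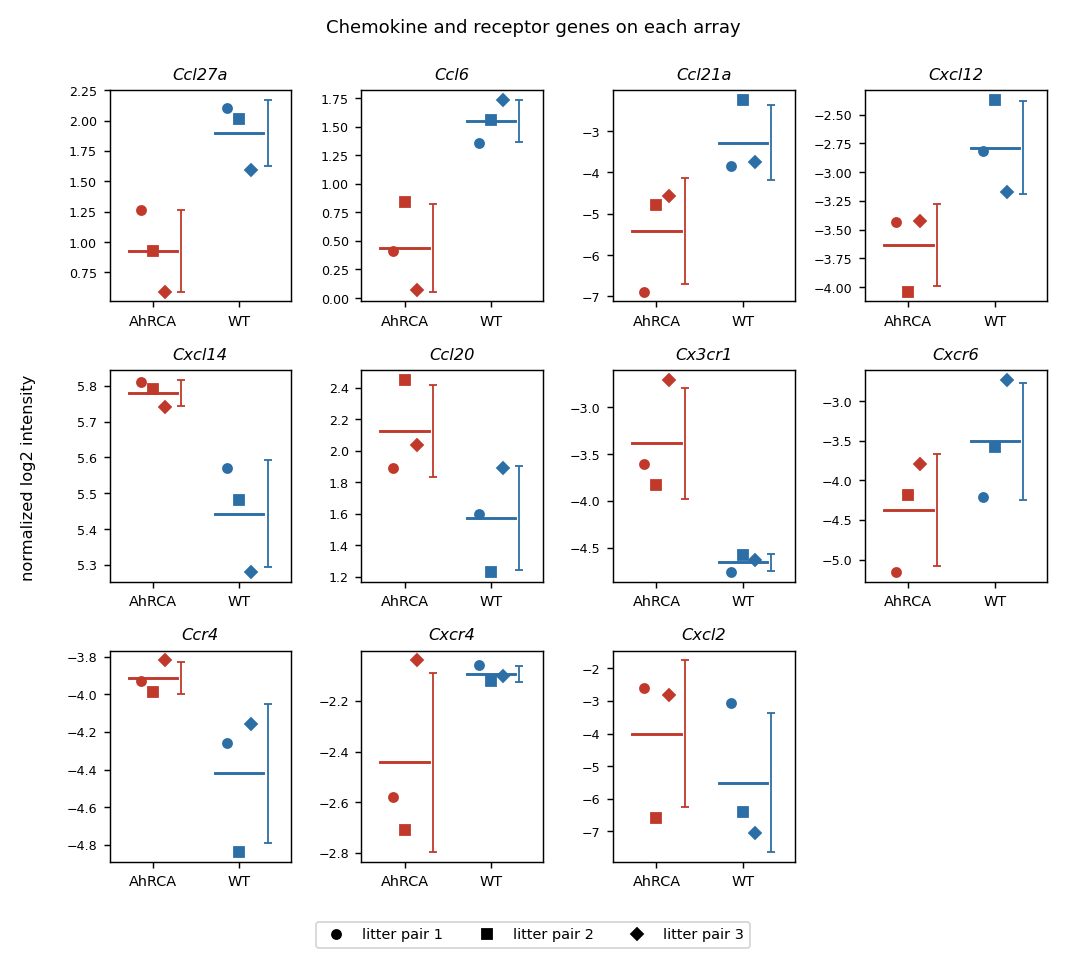
Normalized log2 intensity of 11 chemokine and receptor genes on the AhRCA (red) and WT (blue) arrays, with symbols for the litter pairs, a line at the group mean and an error bar of 1 SD (n = 3). The groups are apart in Ccl27a, Ccl6, Ccl21a, Cxcl12, Cxcl14, Cx3cr1 and Ccr4 and overlap in Ccl20, Cxcr6, Cxcr4 and Cxcl2; each panel has its own vertical range.

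Cxcl12, the ligand of Cxcr4 and a product of stromal cells, was lower on all AhRCA arrays without passing. It stood at -3.43, -4.04 and -3.42 in AhRCA and at -2.82, -2.37 and -3.17 in WT epidermis, with no overlap, and averaged -3.63 ± 0.35 in AhRCA and -2.78 ± 0.40 in WT (SD). The log2 fold change was -0.85 ± 0.26 (SE, n = 3 per group; adjusted p = 0.209, limma, Benjamini-Hochberg), with -1.14 on slide 1 and -0.25 on slide 2. A further Cxcl12 probe, for another transcript, was dim on all arrays. Of 5 tested fibroblast markers 0 passed and 1 was lower at an unadjusted p under 0.05 (limma), with the largest changes of -1.19 ± 0.23 for the collagen gene Col1a2 (adjusted p = 0.0622, and 0.0464 with slides as blocks) and 0.85 ± 0.68 for Col3a1. Their summed intensity was between 19.2 and 19.4 times the 75th percentile in AhRCA and between 18.2 and 25.5 times in WT. Most of that sum came from Dcn alone, which had a log2 fold change of -0.18 ± 0.14, so it says little on the other markers. Pdgfra was not well above background in either genotype, and the part of stromal cells in the Cxcl12 value was not tested.

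Ccl21a guides dendritic cells to lymphatic vessels. It stood at -6.89, -4.80 and -4.57 in AhRCA, where 1 of 3 arrays was well above background, and at -3.84, -2.24 and -3.75 in WT epidermis, where all 3 were. The mean was -5.42 ± 1.28 in AhRCA and -3.28 ± 0.90 in WT (SD), with no overlap. The fitted log2 fold change was -2.14 ± 0.71 (SE, n = 3 per group; adjusted p = 0.253, limma, Benjamini-Hochberg). The size was -0.82 on slide 2 and -2.8 on slide 1, -1.41 without AhRCA 1 and -0.62 with normexp background correction, with values near background. Lyve1, Prox1 and Flt4, markers of lymphatic endothelium, were not well above background on any array. Its near-identical copies in the mouse genome may share the probe.

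The remaining ligands of this kind did not pass. Ccl19, which shares a receptor with Ccl21, had a log2 fold change of 0.56 ± 0.52 with AhRCA 3 at -1.35 (-0.06 without that array), whereas the other 5 arrays lay between -3.39 and -2.74. Its further probe, below the limit for testing, ran the other way, with -5.46, -5.23 and -5.69 in AhRCA and -4.50, -3.59 and -4.62 in WT. Which of the copies of Ccl19 in the mouse genome each probe reads was not tested. Ccl25, known for homing of lymphocytes to the gut, had 0.06 ± 0.16 (95% interval -0.32 to 0.44). Ccl17, a ligand of Ccr4 known from dendritic cells, stood at -4.21, -3.22 and -4.82 in AhRCA and at -6.84, -3.93 and -4.09 in WT, with means of -4.08 ± 0.81 in AhRCA and -4.95 ± 1.63 in WT (SD). Its log2 fold change of 0.87 ± 0.82 (adjusted p = 0.919, limma) rested on WT 1 and was -0.07 without it. The membrane-bound ligands Cxcl16 and Cx3cl1 had 0.10 ± 0.20 (95% interval -0.38 to 0.59) and 0.15 ± 0.24 (95% interval -0.42 to 0.72), and a further probe of Cxcl16 gave -0.04.

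Ccl6, a mouse chemokine known from macrophages and other myeloid cells, had the smallest adjusted p of the family. Its log2 intensity was 0.41, 0.84 and 0.07 in AhRCA and 1.36, 1.56 and 1.73 in WT epidermis. All 3 AhRCA arrays were below all 3 WT arrays, and the pair differences were -0.95, -0.72 and -1.66. The mean was 0.44 ± 0.38 in AhRCA and 1.55 ± 0.18 in WT (SD, n = 3 each), a difference of -1.11 ± 0.21 in log2 units (SE; limma adjusted p = 0.0594). With litter pairs as blocks limma gave an adjusted p of 0.0677 and with slides 0.0606, and of the settings run Ccl6 passed with normexp background correction alone (0.0399, limma).

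The other inflammatory CC chemokines varied between mice of 1 genotype. Ccl4, which attracts T cells and monocytes, stood at -1.52, -2.03 and -1.74 in AhRCA and at -1.24, -3.34 and -2.94 in WT epidermis. WT 1 was the highest of the 6 arrays and the other 2 WT arrays were below all AhRCA arrays, so that the log2 fold change was 0.74 ± 0.52 (limma adjusted p = 0.792) and 1.38 without WT 1 (limma adjusted p = 0.0490). Ccl3, a relative of Ccl4, followed the same order in WT, with -2.23, -3.95 and -2.90, against -2.71, -2.99 and -2.15 in AhRCA, and had 0.41 ± 0.44. Ccl9, another mouse chemokine of myeloid cells, had 0.76 ± 0.41, and Ccl5, a product of T cells, had 0.23 ± 0.20 with values between -4.85 and -4.04.

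Neutrophil-attracting and interferon-induced CXC chemokines also varied within genotypes. Cxcl2 stood at -2.59, -6.59 and -2.82 in AhRCA and at -3.05, -6.42 and -7.04 in WT epidermis. It was well above background on 2 AhRCA arrays and on 1 WT array, and averaged -4.0 ± 2.24 in AhRCA and -5.5 ± 2.15 in WT (SD). Its log2 fold change of 1.5 ± 1.4 has a 95% interval of -1.84 to 4.84 (adjusted p = 0.915, limma). The value was 4.22 on slide 2 and 0.14 on slide 1, 0.58 with normexp background correction, and between 0.74 (without WT 3) and 2.8 (without AhRCA 2) with 1 array left out. Cxcl1 stood at -2.73, -3.36 and -4.26 in AhRCA and at -2.79, -4.60 and -5.27 in WT, higher in AhRCA in each litter pair, and averaged -3.45 ± 0.77 in AhRCA and -4.22 ± 1.28 in WT (SD), a difference of 0.77 ± 0.68 (limma adjusted p = 0.895). Cxcl1, Cxcl2 and Cxcl3 all had their highest WT value in WT 1, the array that was also highest among WT for Ccl2, Ccl3 and Ccl4. Cxcl10, an interferon-induced attractant of T cells, stood at 0.02, 0.85 and 0.81 in AhRCA and at 0.89, -0.37 and 0.30 in WT, and averaged 0.56 ± 0.47 in AhRCA and 0.27 ± 0.63 in WT (SD), a difference of 0.29 ± 0.37 (limma adjusted p = 0.978). Of 6 neutrophil markers on the array, 0 reached 3 arrays well above background.

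Among receptors, Cx3cr1 was higher on all AhRCA arrays. It encodes the receptor of Cx3cl1 and is known from monocytes, macrophages and Langerhans cell precursors. Its log2 intensity was -3.61, -3.83 and -2.71 in AhRCA and -4.76, -4.58 and -4.63 in WT epidermis. Every AhRCA array was above every WT array, and AhRCA 3 stood above the others. The mean was -3.38 ± 0.59 in AhRCA and -4.66 ± 0.09 in WT (SD, n = 3 each), a difference of 1.28 ± 0.29 in log2 units (SE; limma adjusted p = 0.0907). With litter pairs as blocks limma gave an adjusted p of 0.0726 and with slides 0.0448. The value was 0.96 on slide 1 and 1.92 on slide 2, a difference that did not pass when tested (adjusted p = 0.492, limma). A dimmer Cx3cr1 probe, well above background on none of the arrays, stood at -6.28, -6.71 and -5.98 in AhRCA and at -7.07, -7.13 and -6.76 in WT.

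Cxcr6, the receptor of Cxcl16 on resident T cells, was lower in AhRCA within each litter pair. It stood at -5.16, -4.18 and -3.79 in AhRCA and at -4.21, -3.58 and -2.73 in WT epidermis. The groups overlapped, and both genotypes had their highest value in pair 3 and their lowest in pair 1. The mean was -4.38 ± 0.71 in AhRCA and -3.51 ± 0.74 in WT (SD). The difference of -0.87 ± 0.47 in log2 units (SE, n = 3 each) did not pass (limma adjusted p = 0.605), whereas with litter pairs as blocks it passed, as lower (adjusted p = 0.0378, limma), and with slides it did not (0.212). AhRCA 1 was not well above background.

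Ccr4, a receptor of T cells, was higher in AhRCA in each litter pair without passing. Ccr4 stood at -3.93, -3.99 and -3.82 in AhRCA and at -4.26, -4.84 and -4.16 in WT epidermis, a difference of 0.51 ± 0.19 in log2 units (limma adjusted p = 0.351). WT 2, the lowest array, was not well above background for Ccr4. A dimmer Ccr4 probe, well above background on none of the arrays, gave 0.55. Cxcr4, the receptor of Cxcl12, stood at -2.58, -2.71 and -2.04 in AhRCA and at -2.06, -2.12 and -2.10 in WT, so that pair 3 did not share the difference of the other pairs. The mean was -2.44 ± 0.35 in AhRCA and -2.09 ± 0.03 in WT (SD; -0.35 ± 0.18 over all arrays, adjusted p = 0.586, limma); a further probe gave -0.45. Ccr9, the receptor of Ccl25, had -0.14 ± 0.19 (95% interval -0.59 to 0.32).

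The sequences upstream of Ccl27a, Cxcr6 and Cx3cr1 are shown because these 3 genes passed with a block and because AhR, with its partner Arnt, is known to bind the core motif GCGTG. Each is the 250 bases before the annotated start, 5′ to 3′ on the strand of the gene, from RefSeq (GRCm38.p6); capitals mark the core motif on either strand. Ccl27a lies on the minus strand (chr4:41774177-41774426; its most upstream start), Cx3cr1 on the minus strand (chr9:120068297-120068546) and Cxcr6 on the plus strand (chr9:123806227-123806476).
Ccl27a: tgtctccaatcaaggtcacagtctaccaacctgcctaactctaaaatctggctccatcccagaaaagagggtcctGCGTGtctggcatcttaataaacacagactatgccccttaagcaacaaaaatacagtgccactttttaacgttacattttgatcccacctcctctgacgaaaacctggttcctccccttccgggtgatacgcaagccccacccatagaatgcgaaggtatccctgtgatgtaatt
Cx3cr1: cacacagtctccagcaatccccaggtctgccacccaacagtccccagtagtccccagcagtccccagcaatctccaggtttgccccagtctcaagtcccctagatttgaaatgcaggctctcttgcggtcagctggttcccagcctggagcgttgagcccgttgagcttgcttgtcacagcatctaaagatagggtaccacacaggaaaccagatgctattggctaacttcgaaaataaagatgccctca
Cxcr6: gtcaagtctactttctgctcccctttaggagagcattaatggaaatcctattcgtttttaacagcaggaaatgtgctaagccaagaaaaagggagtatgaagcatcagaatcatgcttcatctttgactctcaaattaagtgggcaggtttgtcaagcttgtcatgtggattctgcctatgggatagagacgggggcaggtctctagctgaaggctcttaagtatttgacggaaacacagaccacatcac

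This window of Ccl27a holds 1 match, whose first base lies 175 bases before the start; of its 3 annotated starts, the most downstream has none in its window. The windows of Cx3cr1 and Cxcr6 hold 0. A window was found for 38 of the 51 genes, and 13 of these (34.2%) hold GCGTG or its reverse complement CACGC, against 30.9% of all 27025 genes with a window. Among the 20 tested genes with a window, the 9 with a match were Ccl17, Ccl19, Ccl20, Ccl25, Ccl27a, Cxcl2, Cxcl10, Cxcl14 and Cxcr4. A match describes these letters only and says nothing on binding.

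Chemokine genes and receptors whose symbols fall outside the rule were read from a separate list, and 2 of its 8 tested genes passed, 1 higher and 1 lower, against 2.18% of all genes tested. Ackr3, an atypical receptor that removes Cxcl12 and its relative Cxcl11, stood at 2.31, 2.28 and 2.43 in AhRCA and at 1.40, 1.03 and 1.29 in WT epidermis. The 3 AhRCA arrays were above all WT arrays, and Ackr3 rose by 1.10 ± 0.13 in log2 units (limma adjusted p = 0.0136). Ackr4, an atypical receptor that removes Ccl19, Ccl21 and Ccl25, stood at -2.16, -2.15 and -2.24 in AhRCA and at -1.52, -1.17 and -1.01 in WT. Ackr4 fell by 0.95 in log2 units, with an SE of 0.15 (limma adjusted p = 0.0323), and the groups did not overlap. Both also passed with litter pairs as blocks (limma adjusted p = 0.0162 for Ackr3 and 0.0424 for Ackr4) and with slides. Ackr3 missed the threshold without AhRCA 1, AhRCA 2 or WT 2 (adjusted p up to 0.0639, limma) and Ackr4 without any 1 array except WT 1 (up to 0.140). On slide 1 neither passed (limma adjusted p = 0.0772 for Ackr3 and 0.0998 for Ackr4), and with no filter Ackr4 did not (0.0777).
The other 6 tested genes, Xcl1, Xcr1, Pf4, Ackr2, Ccrl2 and Cmklr1, had log2 fold changes between -0.51 and 0.67 and did not pass.

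Of 24 tested genes of NF-κB, the factor that switches on many chemokine genes, and of the cytokine receptors that feed it, 1 rose and 0 fell (0.530% and 1.65% of all genes tested did), 3 were higher and 0 lower at an unadjusted p under 0.05 (limma), and the median log2 fold change was 0.10. Nfkbiz, an inducible cofactor of NF-κB that responds to interleukin 17 and interleukin 1 in keratinocytes, stood at 2.22, 2.20 and 2.42 in AhRCA and at 1.67, 1.13 and 1.30 in WT epidermis. It rose by 0.91 ± 0.17 (adjusted p = 0.0484, limma, Benjamini-Hochberg), and missed the threshold in the block fit on litter pairs (adjusted p = 0.0508, limma), with quantile normalization (0.0623), median scaling (0.0617) and no filter (0.106), and on slide 1 (0.171). With 1 array left out it passed only without WT 1 (adjusted p up to 0.169 otherwise, limma). Of 22 tested genes that carry the signal of chemokine receptors, such as G protein subunits, receptor kinases and arrestins, 0 passed, 2 were higher and 1 lower at an unadjusted p under 0.05 (limma; 4.62% and 7.57% of all genes), and the median was 0.05. The largest change among them was -1.03 ± 0.33 for Elmo1, which links receptors to Rac (limma adjusted p = 0.240). Elmo1 passed, as lower, with litter pairs (limma adjusted p = 0.0412) and with slides (0.0262) as blocks. It also passed, by another probe, where only probes well above background on all 6 arrays were kept. Next came -0.64 ± 0.30 for Rgs16, which shortens the G protein signal. The arrestin gene Arrb1 (0.48 ± 0.14) passed as higher with slides as blocks (limma adjusted p = 0.0379).

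**Figure D4:**
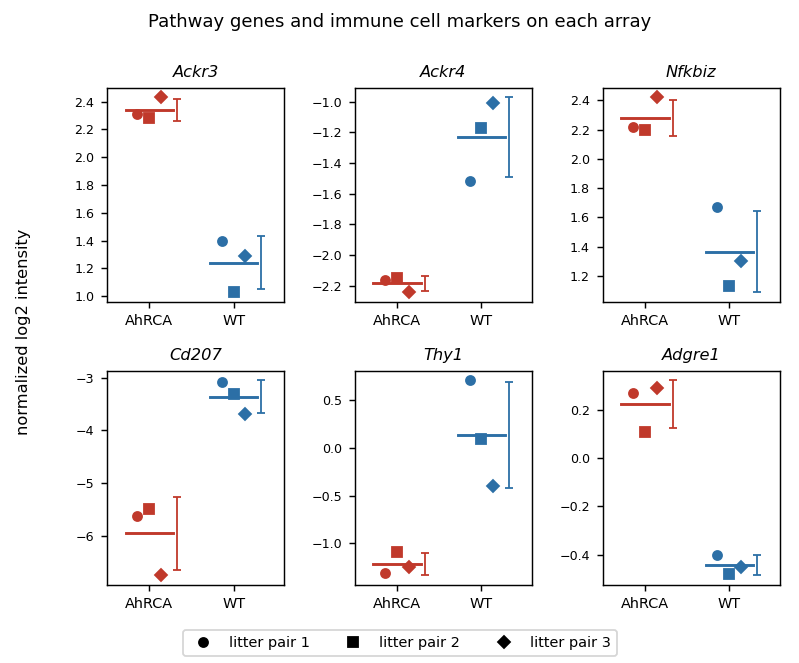
Normalized log2 intensity of Ackr3, Ackr4 and Nfkbiz, which passed the test, and of Cd207, Thy1 and Adgre1 on the AhRCA (red) and WT (blue) arrays. The latter are markers of Langerhans cells, T cells and macrophages, but Langerhans cells also carry Adgre1. Symbols mark litter pairs, lines the group mean and error bars 1 SD (n = 3); the groups are apart in all 6 panels.

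Of the markers of immune cells that carry these receptors, 1 of 6 for Langerhans and dendritic cells, 1 of 5 for macrophages and 0 of 6 for T cells passed the test of genotype, against 2.18% of all genes tested. In whole epidermis fewer cells of a type and less RNA per cell cannot be told apart. The summed intensity of 6 Langerhans and dendritic cell markers, most of it from Cd74 and H2-Ab1, was between 1.76 and 4.56 times the 75th percentile in AhRCA. In WT epidermis it was between 5.16 and 10.5 times. The 6 markers were Cd207, Cd74, H2-Aa, H2-Ab1, Itgax and Cd86. Of these, Cd207, the langerin gene, gave no signal well above background in AhRCA and entered the test through the 3 WT arrays alone. Its fitted log2 fold change was -2.59 ± 0.35 (limma adjusted p = 0.0206), with AhRCA values near background, and -0.75 with normexp background correction. Bounded by the lowest signal well above background, the fall was at least 3.09-fold in the scaling of the main fit. With 1 array left out Cd207 passed only without AhRCA 3 or WT 3 (adjusted p up to 0.0879 otherwise, limma), and it missed the threshold with no filter on dim probes (0.0538). The median of the 6 was -1.35, with 4 negative and 2 positive values, and at an unadjusted p under 0.05 there were 1 higher and 4 lower (limma), against 4.62% and 7.57% of all genes. The positive ones were Cd86, a costimulatory molecule, which was higher on every AhRCA array than on any WT array without passing (0.44 ± 0.18, limma adjusted p = 0.388), and Itgax, the CD11c gene (0.01 ± 0.32). With litter pairs as blocks 3 of the 6 passed, all lower: Cd207, and Cd74 and H2-Ab1 of antigen presentation (limma adjusted p = 0.0114 and 0.0237).
Of 6 tested T cell markers 0 passed and 2 had an unadjusted p under 0.05 (limma), both lower in AhRCA (7.57% of all genes tested); with slides as blocks Thy1 passed (limma adjusted p = 0.0456). All had negative log2 fold changes, between -0.17 for Cd3e and -1.36 ± 0.27 for Thy1 (adjusted p = 0.0653, limma), with -1.24 ± 0.51 for Cd3d, part of the T cell receptor complex (adjusted p = 0.402, limma). Their summed intensity was between 0.954 and 1.14 in AhRCA and between 1.45 and 2.86 in WT. That sum rests largely on Thy1, the brightest of them on every array and the only 1 whose groups did not overlap. Thy1 stood at -1.31, -1.09 and -1.25 in AhRCA and at 0.71, 0.10 and -0.40 in WT. Cd247 and Trat1 were not well above background in either genotype.
Of 5 tested macrophage and monocyte markers 1 rose, against 0.530% of all genes, and 3 were higher at an unadjusted p under 0.05 (limma). The gene that rose was Adgre1, a surface receptor of macrophages that Langerhans cells also carry, with 0.67 ± 0.10 (adjusted p = 0.0321, limma, Benjamini-Hochberg). It missed the threshold whichever array was left out (adjusted p between 0.0674 and 0.16, limma), on slide 1 (0.0901), with median scaling (0.0702) and with no filter (0.0781). With litter pairs as blocks Ms4a7, a macrophage membrane protein, also passed as higher (limma adjusted p = 0.0266), whereas Csf1r, the receptor of macrophage colony-stimulating factor, had 0.13. The sum, most of it from Adgre1 and Csf1r, was between 3.25 and 3.64 in AhRCA and between 2.28 and 2.68 in WT. Neither Lyz2 nor Cd163 was well above background in either genotype. Of 5 mast cell markers only Cma1 was tested (-0.07 ± 0.19). In AhRCA the sums of Langerhans and T cell markers were thus lower and that of macrophage markers higher. Log2 fold changes of the keratinocyte markers were between -0.05 and 0.18. Ccl6, known from myeloid cells, was lower, as was the Langerhans and dendritic cell sum, while the macrophage sum was higher. Ccl27a, a keratinocyte product, was lower while keratinocyte markers differed little. The part of any of these cells in the values of Ccl6, Ccl27a, Cxcr6 and Cx3cr1 was not tested.

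Whether the difference between genotypes itself differed between slides was tested for each gene. None of the 24 passed (limma, Benjamini-Hochberg; 0.00780% of all genes did), and 3 had an unadjusted p under 0.05, against 9.98% of all genes tested. These were Ccl19, with 2.04 on slide 2 and -0.18 on slide 1, Cx3cr1, and Cxcr4, with 0.06 on slide 2 and -0.56 on slide 1. Slide 2 holds 1 array of each genotype.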

How the data were processed

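RNA of 6 epidermis samples, 3 AhRCA and 3 WT, was hybridized to 1-colour Agilent arrays. Per the file headers, the deposited intensities came from Agilent Feature Extraction 10.7.3.1 and were not scaled between arrays. Control spots (1639 of 45018) and 56 to 94 outlier spots per array were left out, spots of a probe were averaged, and log2 intensities were taken relative to the 75th percentile of each array. A table deposited by the authors holds centred log2 values, with column medians of 0.0283, 0.0638 and -0.071 for AhRCA and -0.0705, -0.0495 and 0.0827 for WT. Regressed on the scanner values, its differences between arrays had a slope of 1, which settles scale and direction; each probe's median was 0, and how the authors scaled arrays is not stated. It served as an alternative.

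Of 41174 probes, 26690 matched 1 symbol through RefSeq accessions of GRCm38.p6, 0 several and 14484 none. Probes had to be well above background on 3 or more of the 6 arrays, and the brightest stood for its gene. Where 3 tested genes of the family had several kept probes, 2 agreed in sign. limma 3.58.1 (R 4.3.3) compared the genotypes as 2 group means across 12824 genes, with two-sided tests and Benjamini-Hochberg adjustment at 0.05; the script was tested on simulated data. For Cd207, dim on all AhRCA arrays, the fold is a bound against the lowest signal that each such array held well above background.

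Replicate numbers mark litter pairs by the series' description. Deviations from group means of same-numbered arrays correlated at 0.337, 0.372 and 0.55 across 12821 genes. Arrays of unlike number correlated at 0.194 and 0.15 between pairs 1 and 2, and between -0.416 and -0.356 where pair 3 was involved. Deviations within a genotype cancel out and pair 3 also differs in slide, scan day and sex, so these values cannot test the litter pairing. It was taken from the description. Genes with full values were chosen by a written rule: those called in the fit or with the pair as a block, those detected in 1 genotype only, the 4 largest changes in each direction, and Ccl17, Ccl20, Ccl22, Ccl27a, Cxcl1, Cxcl10, Cxcl12, Cxcl14, Ccr6, Ccr10 and Cxcr4; of other lists, the called genes or else the 2 largest changes. Values of further family members and of the markers Cd86, Itgax, Cd74, H2-Ab1, Ms4a7, Csf1r and Cd3e were added after they were seen. Members and lists were chosen with earlier results of these data known. Alternatives were 3 of scaling and background, 2 of the filter, 1 of probe averaging, the authors' table, pair and slide as blocks, slide 1 alone and each array left out. Normexp correction used the median spot signal in place of the mean planned. Values of 1 gene of the family are not reported here.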

Additional observations from a re-analysis of the deposited data

Results flagged for a closer look

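Ccl12, a monocyte-attracting CC chemokine left out of the fit because it was well above background on 1 array only, stood at -3.76 on that array, AhRCA 3, above all WT arrays (-6.72, -6.03 and -5.07). It stood at -5.18 in AhRCA 1 and -5.47 in AhRCA 2. It drew attention as a signal in data that no comparison used, and its detection rests on 1 mouse. Within each litter pair Ccl12 was higher in AhRCA, as were 19.7% of all genes tested, and WT 3, also on slide 2, was the highest WT array. On AhRCA 3, Ccl2 (-4.63) and both probes of their receptor Ccr2 (-5.01 and -5.62, not well above background) were also higher than on the other AhRCA arrays. AhRCA 3 had the largest share of spots well above background of all arrays (61.3%).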

How the results depend on the processing

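The count of 24 tested chemokine and receptor genes that passed was 0 in the reported fit and 0 under quantile normalization, both other filters, the mean of a gene's probes, the authors' table and slide 1 alone. It was 1 with normexp background correction (Ccl6) and with median scaling (Cx3cr1), 2 with the replicate block (the litter pair) and 2 with the slide as a block, and between 0 and 1 with 1 array left out (Cx3cr1 without AhRCA 3, adjusted p = 0.0461, and Ccl4 without WT 1; limma). Over all genes the count of 279 became 132 with no filter, 497 with the replicate block, 539 with the slide as a block, 130 on slide 1 and between 62 and 195 with 1 array left out. Of the pathway lists, 3 genes passed, 2 with quantile normalization or median scaling (without Nfkbiz), 1 with no filter, 5 with the slide as a block, 0 on slide 1 and between 0 and 3 with 1 array left out (0 without AhRCA 1, AhRCA 2 or WT 2). Of the markers, Adgre1 lost its call with any 1 array left out and Cd207 in 4 of 6 such fits. Fewer arrays or more tested genes are part of those settings; otherwise the cause was not tested. By the looser criterion, positive and significantly above background, 26 genes were detected on all 6 arrays in place of 17 (51%, against 76.2% of all named genes). By it 5 genes in place of 20 were detected on no array (9.8%, against 8.24% of all named genes). The list of undetected genes thus depends on the criterion.

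Of the other settings of single tested genes, 370 kept direction and, where the setting gave a test, side of the threshold. In 8 the gene passed, and 9, all within slide 2, kept direction but differed in size. Another 14 changed sign, each in a gene that did not pass. On slide 1 alone these were Ccl19 (-0.18) and Ccl25 (-0.09), and within slide 2 Ccl17 (-0.73), Ccl9 (-0.24), Cx3cl1 (-0.09), Cxcl16 (-0.16) and Cxcr4 (0.06). With 1 array left out, Ccr9 ranged between -0.27 and 0.02 (without AhRCA 1), Cxcl16 between -0.06 (without AhRCA 1) and 0.31, Ccl19 between -0.06 (without AhRCA 3) and 0.90, Ccl17 between -0.07 (without WT 1) and 1.38, Ccl3 between -0.05 (without WT 2) and 0.81, Cxcl10 between -0.03 (without WT 2) and 0.60, and Ccl25 between -0.04 (without WT 3) and 0.21. Ccl27a lay between -1.14 and -0.81, Ccl6 between -1.66 and -0.84 and Cx3cr1 between 0.52 (normexp) and 1.92 (within slide 2) in all settings run. The number of arrays and signals near background limit what can be measured here.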
